A study of Mus musculus with 6 samples.

Results

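The genes described here mark the cells of small brain vessels: 22 genes of blood-brain barrier endothelium and 9 genes of mural cells, the pericytes and smooth muscle cells that wrap the endothelial tube. They were chosen by name, as a list of known vessel genes, and matched by Ensembl identifier to rows of the deposited table. All 31 were found among its 56923 genes, and all 31 passed the floor on low values, set at a normalized count of 10 reached by 3 libraries or more, as did 16411 genes in total. The tissue was the locus coeruleus, the noradrenaline nucleus of the pons, punched from vibratome slices. Poly-A RNA of the whole punch was sequenced in 3 libraries of 5xFAD transgenic mice (numbered 64, 65 and 79) and 3 of wild-type (WT) mice (62, 63 and 66). The 5xFAD line is a model of amyloid deposition whose human transgenes, with familial Alzheimer's disease mutations, stand under neuronal Thy1 regulatory sequence, so they are driven in neurons and not in vessel cells. No age, sex, strain or treatment stands in the labels for either group. The study, by its title, is about tau in this nucleus and early disruption of sleep. The comparison here asks whether vessel transcripts differed between the genotypes in this tissue.

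In the brain, endothelial cells are sealed to each other by tight junctions, carry few transport vesicles and take up nutrients through dedicated carriers, which together form the blood-brain barrier. Pericytes sit on capillaries and are recruited by PDGF-B from the endothelium acting on their PDGF receptor beta, while contractile smooth muscle surrounds arterioles. In Alzheimer's disease amyloid can be deposited in vessel walls, and clearance of the peptide across the endothelium is one of its exits from the brain.

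Each library held 15158712 to 20079349 reads assigned to genes, and the values are normalized counts, that is reads divided by 1 size factor per library. Differences between genotypes are log2 ratios of 5xFAD over WT, taken after adding 1 to each normalized count, which understates the change of low genes, with n = 3 in each group, and p-values come from limma across all tested genes with Benjamini-Hochberg adjustment. As a check of the labels, Thy1 read 21875, 16885 and 22211 in 5xFAD and 8755, 7976 and 9089.6 in WT; how reads of the transgene cassette were counted was not tested. The labels do not say that each library is a separate animal, so p-values measure only the spread between these samples, which may be technical. In bulk tissue, fewer vessel cells and less RNA per vessel cell cannot be told apart.

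The punches held vessel RNA in every library, and the markers of both vessel layers were read at all 31 genes. Between 22 and 2990 reads lay behind each value. To compare genes with each other, normalized counts were divided by exon length in kilobases. On that per-length scale the glucose carrier Slc2a1 was highest at 575 (mean of the 6 libraries), followed by the endothelial membrane protein Itm2a at 522, the pericyte signalling regulator Rgs5 at 428 and Vtn, which encodes the matrix protein vitronectin, at 415. Cldn5, the main sealing claudin of the barrier, stood at 298 per kilobase, and Pdgfrb at 60.7. The smooth muscle genes Acta2, Tagln and Myh11 were low at 44.5, 28.9 and 15.1 per kilobase, and Anpep was lowest at 9.18. Some members are not confined to vessels. Slc2a1 and Slco1c1 are also made by astrocytes and Tjp1 by many cells, and their levels in mixed tissue include those cells.

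**Figure D1:**
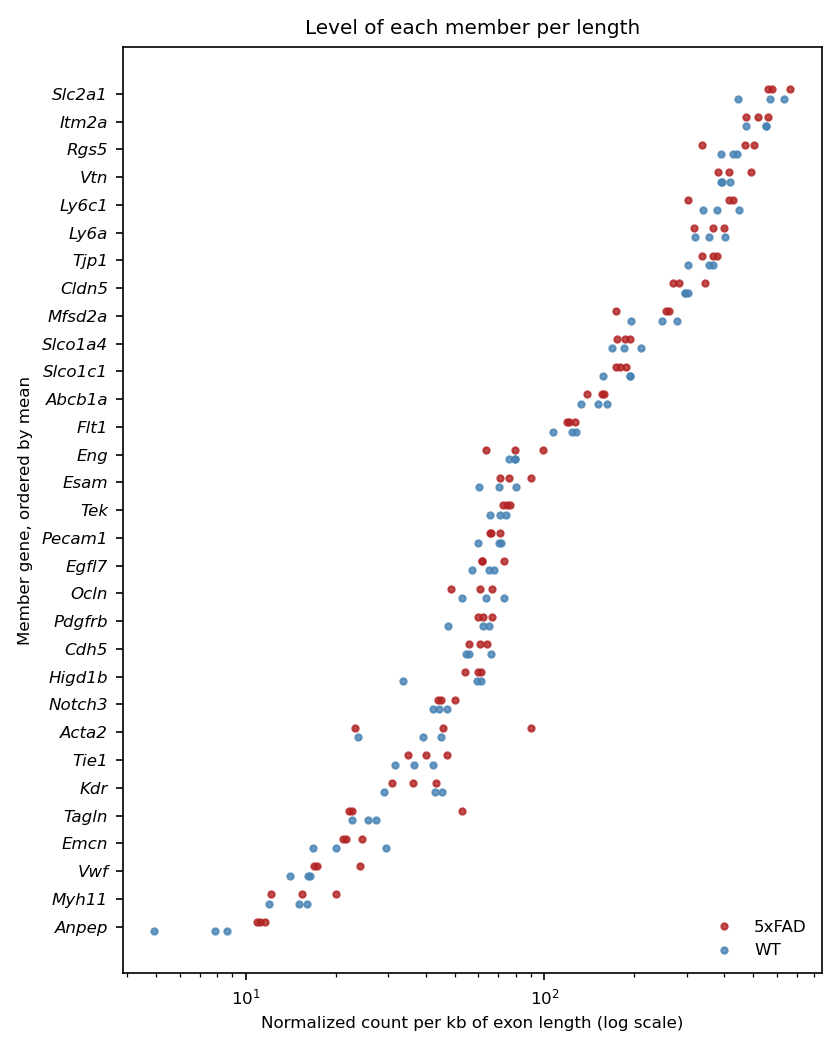
Normalized count per kilobase of exon length (x axis, log scale) for each of the 31 members (y axis, ordered by mean), with 1 point per library, 5xFAD above WT. Slc2a1 stands highest at a mean of 575 and Anpep lowest at 9.18, and the points of both genotypes mostly lie on each other.

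No vessel gene passed the test between genotypes. In limma 0 of 31 members had an adjusted p under 0.05, against 0.00609% of all tested genes (1 of 16411, Thy1). At an unadjusted p under 0.05 there was 1 member, Anpep, with higher values in 5xFAD, against 2.32% of all tested genes in either direction and 1.27% with 5xFAD higher. On recovered reads, edgeR called 0 members with 1 at an unadjusted p under 0.05, and DESeq2 called 0 with 0. The authors' deposited table gives adjusted p-values under 0.05 to 0 members, against 0.0106% of its genes, and unadjusted ones to 0. The differences were bounded closely for most members: the 95% confidence interval (CI) lay wholly inside 1.5-fold for 26 of 31, against 71.4% of all tested genes. The members varied within a genotype by a median SD of 0.19 on the log2 scale, against 0.14 over all tested genes. The 5 members with wider intervals were Vwf, Anpep, Higd1b, Acta2 and Tagln.

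Among the members 23 had higher and 8 had lower values in 5xFAD, with a median log2 ratio of 0.048, while 50.2% of all tested genes had higher values, with a median of 0.00053. The 22 endothelial genes split into 14 higher and 8 lower, with a median of 0.021, and 17 of the 22 lay within 0.1 of 0. The 9 mural genes all had higher values, with a median of 0.12 and a range of 0.034 to 0.67. Summed per kilobase, the mural genes reached 1181, 1168 and 1087 in 5xFAD and 1051, 1058 and 1064 in WT. Each 5xFAD sum lay above each WT sum, but by a small margin. Per kilobase, the pericyte genes alone summed to 1097, 1006 and 1030 in 5xFAD and 990, 970 and 987 in WT. Without division by length, the closest mural sums were 3806 in 5xFAD 65 and 3801 in WT 63. There the pericyte genes summed to 3352 in 5xFAD 65, below the WT range of 3413 to 3527. The smooth muscle genes summed to 454 in 5xFAD 65, against 194 to 274 in WT. Rgs5 and Vtn, at 428 and 415 per kilobase, made up most of the mural sum, and each overlapped between genotypes. The endothelial genes reached 4126, 3856 and 3998 in 5xFAD and 4006, 3571 and 4198 in WT and overlapped. Both counts of higher values depended on single libraries. Without WT 63, 8 of the 22 endothelial genes had higher values, and without 5xFAD 65, 5 of the 9 mural genes did. Over the 15 alternative settings the sign turned at least once for 26 of the 31 members, and it held for Esam, Tek, Tie1 and Vwf. It also held for Anpep in the 14 settings that tested it, since Anpep lies under the higher floor of 50.

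**Figure D2:**
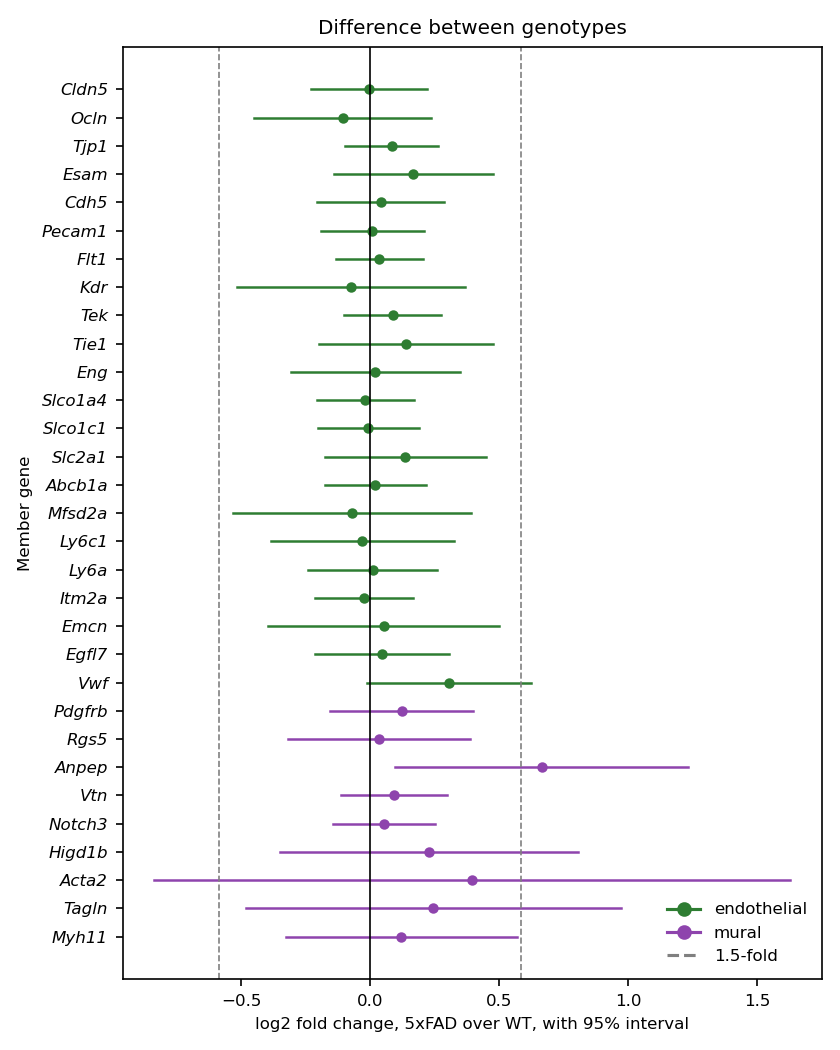
Log2 fold change, 5xFAD over WT, with its 95% CI from limma (x axis) for each member (y axis), in green for endothelial and purple for mural genes, with dashed lines at 1.5-fold in either direction. Intervals of 26 of the 31 members lie between the dashed lines, and the interval of Anpep is the one that does not cross 0.

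Genes of the endothelial junctions overlapped between genotypes. Cldn5 read 399, 381 and 489.9 in 5xFAD and 429, 418 and 418 in WT, the groups overlapping, with 5xFAD 79 highest and 5xFAD 65 lowest. Its log2 ratio was −0.0036 (SE 0.10, 95% CI −0.23 to 0.22). Ocln, a second tight junction protein, read 257, 282 and 205 in 5xFAD and 268, 223 and 309 in WT, a log2 ratio of −0.11 (95% CI −0.45 to 0.24), with WT 66 highest and 5xFAD 79 lowest. Tjp1, the scaffold that ties junction proteins to actin, read 2870.5, 2633 and 2951 in 5xFAD and 2776, 2358 and 2865 in WT. Its log2 ratio of 0.083 (SE 0.080) rested on WT 63, the lowest of the 6 libraries, and was −0.0027 without it. Cdh5, the adherens junction cadherin of endothelium, ranged over 229 to 278 in the 6 libraries and Pecam1, an adhesion molecule of the same contacts, over 374 to 447, with log2 ratios of 0.041 and 0.0093. Esam, an adhesion molecule at endothelial tight junctions, had the largest value of this set at 0.17 (SE 0.14, 95% CI −0.14 to 0.47). All 6 junction genes had intervals inside 1.5-fold.

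All 5 receptors of vessel growth factors likewise had intervals inside 1.5-fold. The median half-width of these intervals was 0.33 on the log2 scale, against 0.25 over all tested genes. Flt1, which binds VEGF and limits its action, read 1600.5, 1627 and 1715 in 5xFAD and 1728, 1437 and 1668 in WT, a log2 ratio of 0.036 (95% CI −0.13 to 0.20). Kdr, the main signalling receptor of VEGF, read 279.7, 328 and 392 in 5xFAD and 263, 388 and 410.4 in WT, with the highest and the lowest library both in WT. Its log2 ratio was −0.073 (SE 0.19, 95% CI −0.52 to 0.37). Tek, the receptor of the angiopoietins, varied least of all members, at 309.7 to 359.9 over the 6 libraries, with a log2 ratio of 0.088 (SE 0.084, 95% CI −0.10 to 0.28). Its partner Tie1 read 171, 197 and 232 in 5xFAD and 180.1, 155 and 208 in WT, a log2 ratio of 0.14 (SE 0.15), and Eng, a co-receptor of TGF-beta family ligands, had one of 0.021 (SE 0.15). In 5xFAD 79 all 5 receptor genes lay above the mean of the other libraries, and 3 of the 5 were highest there. All 5 also lay above the mean of the other libraries in WT 66, where 1 was highest.

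Promoter windows from 250 bases before to 50 bases after the annotated start site were taken from RefSeq (GRCm38.p6, an earlier build than the mm39 that the submitters' processing notes name), where 22 of the 31 members had 26 windows. Endothelial genes are known targets of ETS transcription factors, and the ETS-type element GGAAGT, searched on both strands, stood in 8 of 21 windows of endothelial members (38.1%) and in 23.8% of all 32851 windows. The Tie1 window (chr4:118489800-118490099, minus strand) is shown as an endothelial example, 5′ to 3′ on the gene's strand, with the element, read here on the opposite strand as ACTTCC, in capitals.
Tie1: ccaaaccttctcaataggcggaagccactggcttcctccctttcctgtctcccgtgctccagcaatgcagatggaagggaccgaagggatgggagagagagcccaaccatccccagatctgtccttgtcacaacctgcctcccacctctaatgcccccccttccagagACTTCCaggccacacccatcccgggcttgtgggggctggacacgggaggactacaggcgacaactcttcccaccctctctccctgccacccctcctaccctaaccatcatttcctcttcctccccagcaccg
A match describes the letters alone, and 13 of the 21 endothelial windows had none.

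The carriers and pumps of the barrier had the median difference closest to 0 of the endothelial sets, −0.0066, with 2 of 5 genes higher and 3 lower. Slc2a1, which encodes the glucose carrier GLUT1, read 2332, 2019 and 1963 in 5xFAD and 2222, 1559.6 and 2003 in WT. WT 63 was lowest there, the log2 ratio was 0.14 (SE 0.13, 95% CI −0.17 to 0.45), and without WT 63 it was −0.0076. Mfsd2a, a lysolipid carrier that also holds down transcytosis, read 574, 390.0 and 589.9 in 5xFAD and 626, 437 and 558 in WT, with 5xFAD 65 lowest and WT 62 highest and a log2 ratio of −0.070 (SE 0.19). Slco1a4, an organic anion carrier, and Slco1c1, a thyroxine carrier, had log2 ratios of −0.019 (SE 0.084) and −0.0066 (SE 0.087). Abcb1a, the drug efflux pump P-glycoprotein, which has been linked to amyloid-beta export, read 854, 866 and 758 in 5xFAD and 831, 729 and 887 in WT, a log2 ratio of 0.020 (95% CI −0.18 to 0.22). Of its transcript, 17.6% of 50-base stretches also occur in another gene, mostly Abcb1b, so its count is uncertain.

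Of the surface and secreted proteins, Vwf alone had groups that did not overlap. Vwf, the clotting factor stored in endothelial granules, read 278, 387 and 272 in 5xFAD and 260.0, 226 and 262 in WT. Every 5xFAD library lay above every WT library, although 5xFAD 79 and WT 66 were 272 and 262, and 5xFAD 65 stood apart from the other two. Its log2 ratio was 0.31 (SE 0.14, 95% CI −0.011 to 0.63) at an unadjusted p of 0.0567 (limma adjusted p = 0.9995), and without 5xFAD 65 it was 0.14. Groups did not overlap with 5xFAD higher for 2 members, Vwf and Anpep, and with 5xFAD lower for 0, against 3.72% of all tested genes with 5xFAD higher and 7.42% in either direction. The authors' deposited table gives Vwf a log2 ratio of 0.33, with the sign turned to 5xFAD over WT.

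The other surface genes did not separate. Itm2a ranged over 827 to 976 and Egfl7, a secreted matrix protein of vessel sprouts, over 204 to 263, with log2 ratios of −0.025 and 0.048. Emcn, a sialoglycoprotein of capillary and venous endothelium, read 117, 132 and 114 in 5xFAD and 91.0, 108 and 159 in WT, with both extremes in WT, and had a log2 ratio of 0.053 (SE 0.20). The GPI-anchored Ly6 proteins were highest in WT 66 and lowest in 5xFAD 79. Ly6c1 read 715, 697 and 509 in 5xFAD and 632, 568 and 751 in WT, and Ly6a, also known as Sca-1, had a log2 ratio of 0.010 (SE 0.11). Both counts are uncertain, since 32.8% of the 50-base stretches of Ly6c1 and 19.0% of those of Ly6a occur in other genes, mainly Ly6c2 for Ly6c1 and Ly6c1 for Ly6a.

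Across the endothelial genes WT 63 stood low. It had the lowest value of the 6 libraries for 11 of the 22 genes, the highest for 0, and a value above the mean of the other 5 for 3. WT 66 was highest for 8 and 5xFAD 79 for 7. The median deviation of the endothelial genes from each gene's mean over the 6 libraries was 0.0084, −0.035 and 0.064 in 5xFAD libraries 64, 65 and 79, and 0.017, −0.17 and 0.092 in WT libraries 62, 63 and 66, on the log2 scale. The 8 endfoot genes of astrocytes, the cells whose processes cover the vessels, also had medians of −0.12 in WT 63 and 0.12 in WT 66, and the 8 microglia markers of −0.11 and 0.089. The 6 oligodendrocyte markers had medians of −0.26 in WT 63 and 0.13 in WT 66. The 6 noradrenergic neuron markers ran the other way, at 0.25 in WT 63 and −0.66 in WT 66. Their part in the endothelial values was not tested.

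**Figure D3:**
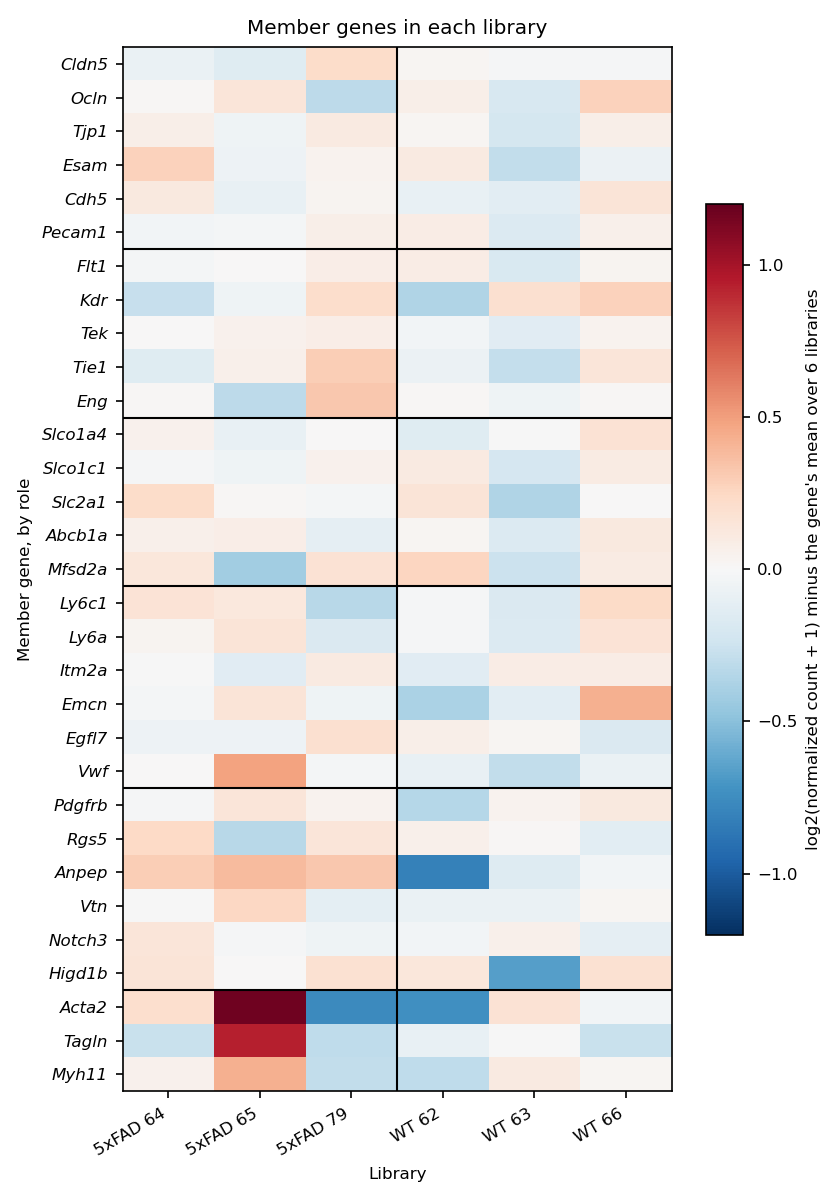
Deviation of log2(normalized count + 1) from each gene's mean over the 6 libraries (colour) for the 31 members (rows, by role) in each library (columns, 5xFAD left of WT). WT 63 lies below the mean of the other libraries for all 6 junction and all 5 transporter genes, and the 3 smooth muscle genes at the foot are highest in 5xFAD 65.

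Pericyte genes showed 1 member apart from the rest. Anpep, the membrane aminopeptidase CD13 of pericytes, read 45.1, 47.8 and 46.0 in 5xFAD and 20.4, 32.7 and 35.7 in WT. The 3 5xFAD libraries lay above all 3 WT libraries, of which WT 62 was lowest. Only 39, 46 and 46 reads lay behind the 5xFAD values, so how closely they agree is uncertain. Its mean was 46.3 ± 1.41 in 5xFAD and 29.6 ± 8.10 in WT (SD, n = 3 each), a log2 ratio of 0.67 (SE 0.25, 95% CI 0.10 to 1.23) at an unadjusted p of 0.0264, which did not pass over all genes (limma adjusted p = 0.9995). It is the member with the fewest reads, 22 to 46 per library. Without WT 62 the log2 ratio was 0.43, with an unadjusted p of 0.0974, and the authors' deposited table gives 0.65 (SE 0.36), with the sign turned to 5xFAD over WT. CD13 is also made by fibroblasts of the meninges and vessel walls, whose markers are given below.

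The Anpep promoter window (chr7:79848161-79848460, minus strand, GRCm38.p6) is shown because this member had the smallest p. It is rich in G and C (72.3%, against a median of 52.7% over all windows) and holds 1 GGAAGT element on the opposite strand, in capitals as ACTTCC, beginning 7 bases before the start site.
Anpep: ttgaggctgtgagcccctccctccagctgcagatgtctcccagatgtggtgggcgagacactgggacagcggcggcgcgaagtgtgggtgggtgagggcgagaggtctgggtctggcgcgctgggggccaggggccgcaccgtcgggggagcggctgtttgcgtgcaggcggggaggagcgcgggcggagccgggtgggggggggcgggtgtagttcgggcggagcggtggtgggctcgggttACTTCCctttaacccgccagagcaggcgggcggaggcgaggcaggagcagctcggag

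The remaining 5 pericyte genes overlapped between genotypes. Pdgfrb, the receptor through which pericytes are recruited, read 328, 366 and 341 in 5xFAD and 260.0, 341 and 358 in WT, with WT 62 lowest and the groups overlapping. Its log2 ratio was 0.12 (SE 0.12, 95% CI −0.16 to 0.40). Rgs5, which curbs signalling of G-protein-coupled receptors, read 2286, 1529 and 2132 in 5xFAD and 2009, 1950.1 and 1773 in WT, with both the highest and the lowest library in 5xFAD and a log2 ratio of 0.034 (SE 0.15). Without 5xFAD 65 its log2 ratio was 0.21 at an unadjusted p of 0.0150. Vtn had a log2 ratio of 0.092 (SE 0.092, 95% CI −0.11 to 0.30), and Notch3, the Notch receptor of mural cells, one of 0.053 (SE 0.088, 95% CI −0.14 to 0.25). Higd1b, a marker of brain pericytes, read 50.8, 45.8 and 52.0 in 5xFAD and 50.1, 28.4 and 52.1 in WT. Here WT 63 alone was low and the other 5 libraries were close together, and the log2 ratio of 0.23 (SE 0.26) was −0.046 without WT 63.

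The 3 smooth muscle genes were highest in 1 library. Acta2, the smooth muscle actin, read 101, 198 and 51.0 in 5xFAD and 52.0, 98.9 and 85.8 in WT, the widest spread of all members. 5xFAD 65 was highest and 5xFAD 79 lowest, so the extremes of all 6 libraries were both in 5xFAD. The log2 ratio of 0.40 (SE 0.51, 95% CI −0.84 to 1.63) was −0.087 without 5xFAD 65 and 0.88 without 5xFAD 79. Tagln, an actin-binding protein of smooth muscle also called SM22, read 45.1, 105 and 44.0 in 5xFAD and 51.1, 54.2 and 44.9 in WT. Its 5 other libraries lay within 44.0 to 54.2 while 5xFAD 65 stood at 105, and the log2 ratio of 0.25 (SE 0.32) was −0.16 without it. Myh11, the smooth muscle myosin heavy chain, read 117, 152 and 92.0 in 5xFAD and 91.0, 121 and 114 in WT, again highest in 5xFAD 65, with a log2 ratio of 0.12 (SE 0.20) that was −0.060 without that library. Of 11 other smooth muscle genes tested, 6 were highest in 5xFAD 65 as well, and 7 had higher and 4 lower values in 5xFAD.

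**Figure D4:**
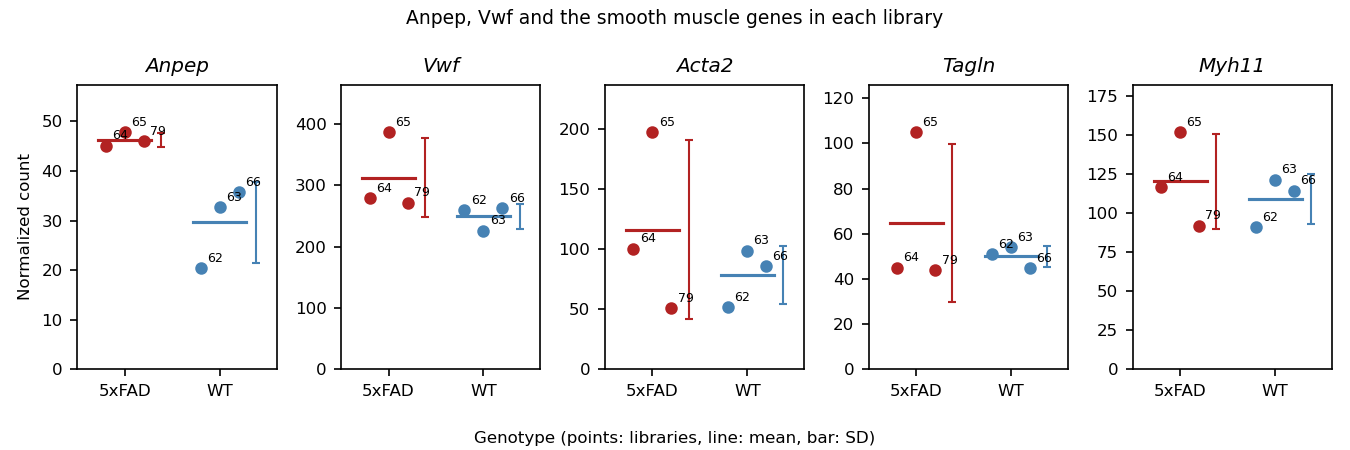
Normalized count (y axis, from 0) of Anpep, Vwf, Acta2, Tagln and Myh11 in each 5xFAD and WT library (points with their library numbers), with the group mean (line) and SD (bar, n = 3). The 3 5xFAD libraries lie above the WT libraries for Anpep and Vwf, while for the 3 smooth muscle genes 5xFAD 65 is high and the other libraries overlap.

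Smooth muscle genes are classic targets of serum response factor, which binds the CArG box, and the Acta2 promoter is known to carry variants of this box with 1 G or C inside its A/T core. The Acta2 window (chr19:34255324-34255623, minus strand, GRCm38.p6) is shown because the gene varied most. Its 2 variant boxes, in capitals, begin 84 and 34 bases before the annotated start site, and it holds no box of the strict form.
Acta2: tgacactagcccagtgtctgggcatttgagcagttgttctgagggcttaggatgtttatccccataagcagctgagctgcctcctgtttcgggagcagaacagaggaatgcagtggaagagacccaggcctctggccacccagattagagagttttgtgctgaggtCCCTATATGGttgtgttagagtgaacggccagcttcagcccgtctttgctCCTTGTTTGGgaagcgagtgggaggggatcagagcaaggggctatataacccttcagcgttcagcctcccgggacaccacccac
The strict form, searched on both strands, stood in 1.63% of all windows and in 0 of the 26 member windows. Tagln and Myh11 had no window, so of the smooth muscle members only Acta2 was searched. The variant with 1 G or C stood in 8.50% of all windows and in 7 of the 26, that is in 6 of 21 endothelial and 1 of 5 mural windows.

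The punch could hold other cells of the vessel wall and its surroundings, and their markers were read beside the members. Of 15 fibroblast markers 14 had higher values in 5xFAD, against 50.2% of all tested genes, with a median log2 ratio of 0.41. In limma 0 passed and 5 (Lum, Serping1, Col1a1, Col3a1 and Fmod) had an unadjusted p under 0.05 with 5xFAD higher, against 1.27% of all tested genes. Their summed normalized count was 8240.0 to 8342 in 5xFAD and 6614 to 7455 in WT, and 0 of the 15 were at 0 in any library. The largest part of that sum was Ptgds. It read 4830, 3832 and 5243 in 5xFAD and 3859, 4144 and 4308 in WT, the groups overlapping. Separation of the sums rested on this gene, since without it 5xFAD 79 would lie below WT 66. Ptgds was lowest in 5xFAD 65 and highest in 5xFAD 79, where the oligodendrocyte markers had medians of −0.28 and 0.26. Lum, a collagen-binding proteoglycan, read 58.9, 70.7 and 43.0 in 5xFAD and 23.2, 25.8 and 30.6 in WT, Serping1, the C1 inhibitor, read 99.4, 131 and 78.0 in 5xFAD and 52.9, 63.7 and 73.5 in WT, and Col1a1, a chain of fibrillar collagen, read 181, 228 and 164 in 5xFAD and 139, 146 and 142 in WT. In each of these the 5xFAD libraries lay above the WT libraries. Of the 15 markers 10 were highest in 5xFAD 65, where the smooth muscle genes were highest, and 9 were lowest in WT 62, where Anpep was lowest. Their part in the values of Anpep, Acta2, Tagln and Myh11 was not tested.

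Blood cells and neighbouring cells were read in the same way. The 5 red blood cell genes, all measured, summed to 1944 to 3370.3 in 5xFAD and 1961 to 3140.5 in WT, with log2 ratios below 0 for all 5 and the highest value of 4 in 5xFAD 65. Of 8 perivascular macrophage markers 4 passed the floor, with 3 higher and 1 lower, and the other 4 (Lyve1, Pf4, Cbr2 and Ms4a7) ran from 0 to 13.5. Cbr2 read 11.6, 13.5 and 9.00 in 5xFAD and 4.64, 5.16 and 5.10 in WT. Pf4 read 9.24, 13.5 and 9.00 in 5xFAD and 5.57, 0 and 3.06 in WT. Both had 5xFAD values above all WT values, while Lyve1 and Ms4a7 overlapped. None of these low genes was tested, and they were named after values were seen. Of all tested genes 3.72% had groups apart with 5xFAD higher, and no such share was taken for genes under the floor. Choroid plexus markers were low apart from WT 66, where Ttr, its main secreted protein, read 1107 against 10.2 to 61.2 in the other libraries. The 6 ependymal markers summed to 726 to 1578 in 5xFAD and 902 to 1420.2 in WT. Their median deviation was 0.66 in 5xFAD 65, where 4 of the 6 were highest, and −0.82 in 5xFAD 79, where 5 were lowest, and these are also the libraries in which Acta2 was highest and lowest. The noradrenergic neuron markers had a median of 0.42 in 5xFAD 65 and the oligodendrocyte markers one of −0.28. Their part in the vessel values was not tested either.

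**Figure D5:**
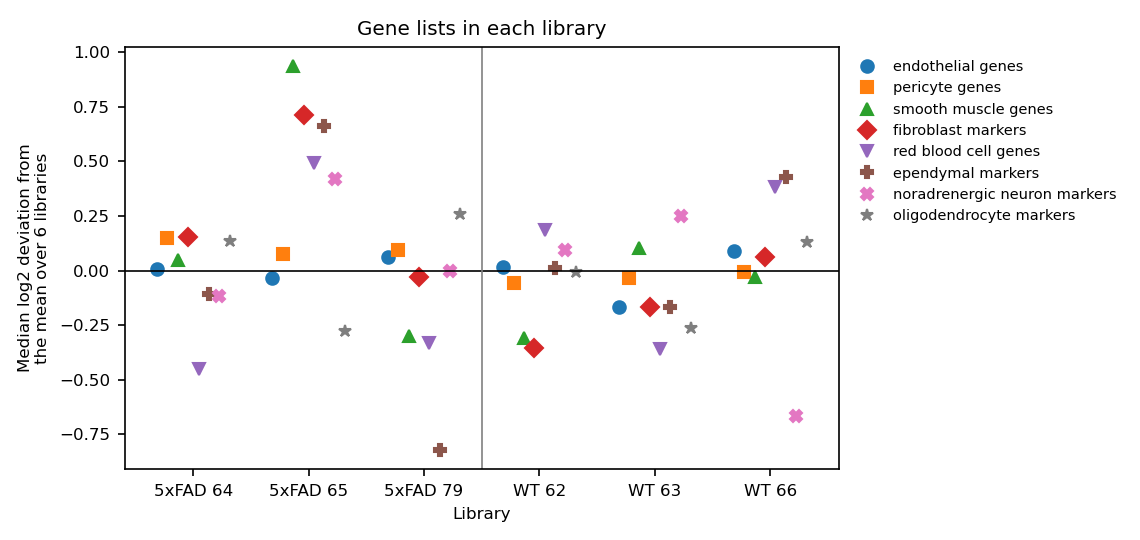
Median log2 deviation from each gene's mean over the 6 libraries (y axis) for endothelial, pericyte and smooth muscle members and for fibroblast, red blood cell, ependymal, noradrenergic neuron and oligodendrocyte markers, in each library (x axis, 5xFAD left of WT). In 5xFAD 65 the smooth muscle genes reach 0.94, the fibroblast markers 0.71, the ependymal markers 0.66, the red blood cell genes 0.49 and the noradrenergic neuron markers 0.42, while the endothelial genes stay at −0.035.

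The wider vessel pathways were compared through 133 further genes that passed the floor, of 141 listed. Of these 84 had higher and 49 lower values, with a median log2 ratio of 0.044. In limma 0 passed, with 6 at an unadjusted p under 0.05, against 2.32% of all tested genes, and for 91 the 95% CI lay inside 1.5-fold. Groups did not overlap with 5xFAD higher for 5, among them Fli1, P2ry14, Lamc1 and Nid1, and lower for 2, the surface sialomucin gene Cd34 and the tropomyosin gene Tpm1, against 3.72% of all tested genes with 5xFAD higher and 7.42% in either direction, so these counts were near the share over all genes.

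Ligands that act on the endothelium and mural cells were evenly divided, with 7 of 14 higher and a median of 0.0031. Vegfa, the main vessel growth factor, read 1439, 1359 and 1339 in 5xFAD and 1441, 1377 and 1575 in WT, a log2 ratio of −0.085 (95% CI −0.23 to 0.062). Of 12 co-receptors and Notch or TGF-beta receptors, 5 were higher and 7 lower, among them Notch1 at −0.11 (SE 0.089) and the semaphorin receptor Plxnd1 at 0.16 (SE 0.13). Of 12 genes of Wnt signalling, which induces and keeps the barrier, 9 were higher and 3 lower, with the endothelial receptor Fzd4 at 0.14 (SE 0.12) and the target Lef1 at −0.27 (SE 0.17).

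Among endothelial transcription factors 7 of 12 were higher, and Fli1, an ETS factor, read 76.3, 72.8 and 82.0 in 5xFAD and 58.5, 63.7 and 54.1 in WT. The groups did not overlap, and its log2 ratio was 0.39 (SE 0.16) at an unadjusted p of 0.0410, which did not pass in limma. Of 16 other transport and junction genes 13 were higher and 3 lower, with a median of 0.042. Slc7a5, the carrier of large neutral amino acids, read 948, 965 and 826 in 5xFAD and 849, 705 and 777 in WT, and the groups overlapped. Its log2 ratio was 0.23 (SE 0.088) at an unadjusted p of 0.0248, which did not pass over all genes in limma.

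Genes that move amyloid at the vessel wall had 3 higher and 3 lower values of 6 tested, with a median of −0.0033. Values from the whole punch do not separate vessel cells from other cells that make these genes. Clu, which encodes the amyloid-binding chaperone clusterin, had a log2 ratio of 0.029 (SE 0.063). Ager, the receptor RAGE, was under the floor at 1 to 10.4 normalized counts. Genes of endothelial activation had 2 higher and 5 lower values of 7 tested, with Icam1 at −0.43 (SE 0.34) and Vcam1 at −0.086 (SE 0.077). The selectins Sele and Selp, which appear on inflamed endothelium, were under the floor, and Selp was at 0 in all 6 libraries.

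Of the basement membrane genes, shared by endothelium, mural cells and astrocyte endfeet, 11 of 13 were higher, with a median of 0.077. Nid1, which links laminin to collagen IV, read 463, 411 and 461 in 5xFAD and 356, 327 and 391 in WT, and the groups did not overlap. Its log2 ratio was 0.32 (SE 0.093, 95% CI 0.11 to 0.52) at an unadjusted p of 0.00750 (limma adjusted p = 0.9995). Lamc1, a laminin chain, read 814, 763 and 813 in 5xFAD and 736, 641 and 718 in WT, also with no overlap. Of 13 other pericyte genes 11 were higher, with a median of 0.10, and P2ry14, a receptor of UDP-sugars, read 71.6, 71.8 and 58.0 in 5xFAD and 52.0, 43.9 and 45.9 in WT, with no overlap and an unadjusted p of 0.0244. Of 18 other endothelial genes 10 were higher and 8 lower, with a median of 0.037. Cd34 read 288, 284 and 289.9 in 5xFAD and 291, 302 and 327 in WT, a log2 ratio of −0.092 (SE 0.087). Fibroblasts make several basement membrane components as well, and their markers had higher values in 5xFAD too, as given above. Their part in the values of Nid1 and Lamc1 was not tested.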

How the data were processed

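The deposited table is named as TPM, but its 6 library columns hold the authors' signal, in which each count was scaled by 1 size factor per library (100% of values were whole multiples of 1 step, tolerance 0.001). Per the submitters' processing notes, STAR, RSEM, DESeq2 and mm39 were used, with annotation and strand not given in the sources used here. The table's log2 fold change (WT over 5xFAD) and standard error, test score, unadjusted and adjusted p-value are the authors', per the file headers. Symbols came from a table of gene names (52073 identifiers matched). Reads were recovered by multiplication with the size factors (15158712 to 20079349 per library). Genes reaching a normalized count of 10 in 3 libraries or more (16411) were compared on the log2(normalized count + 1) scale, using limma 3.58.1 in R 4.3.3, with trend and robust moderation and Benjamini-Hochberg adjustment at 0.05. edgeR 4.0.16 and DESeq2 1.42.0 on recovered reads, other pseudocounts, floors and scalings, and leaving out each library were alternatives. Exon lengths and 50-base stretches came from GENCODE M21 (GRCm38). The fit was tested on simulated data. Figures used Python 3.11.15 and matplotlib 3.10.9.

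The genes named were all members, Thy1, and, from each further list, among up to 3 genes with the smallest unadjusted p, and for other cell types up to 3 of the most abundant. The members and lists were chosen with earlier results of these data known. The promoter windows, their motifs, Ttr and the genes named under the floor or to fill a count (Col3a1, Fmod and Tpm1) were chosen after values were seen. A few items are not reported here.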

Additional observations from a re-analysis of the deposited data

How the results depend on the processing

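Members past the threshold numbered 0 under all 15 alternatives, edgeR and DESeq2 included, of the members each one tested (Anpep was not tested at the floor of 50), with adjusted p-values down to 0.813. Over all genes 1 passed in limma, 0 without trend and robust moderation and 4 with DESeq2, and leaving out 1 library gave 0 to 2. On leaving out 1 library the median log2 ratio ran over 0.0028 to 0.10 for the members, −0.0086 to 0.072 for endothelial and 0.072 to 0.19 for mural genes. Single log2 ratios that turned sign when 1 library was left out ran over −0.11 to 0.068 for Cldn5, −0.012 to 0.13 for Cdh5, −0.27 to 0.047 for Kdr, −0.058 to 0.083 for Abcb1a, −0.071 to 0.10 for Ly6a, −0.080 to 0.21 for Rgs5, −0.0043 to 0.10 for Notch3, −0.10 to 0.065 for Slco1a4, −0.11 to 0.045 for Slco1c1, −0.21 to 0.12 for Mfsd2a, −0.10 to 0.037 for Itm2a, −0.12 to 0.28 for Emcn, −0.011 to 0.17 for Vtn and −0.087 to 0.88 for Acta2. The others ran over −0.16 to 0.46 for Tagln, −0.060 to 0.30 for Myh11, −0.23 to 0.024 for Ocln, −0.070 to 0.057 for Pecam1, −0.14 to 0.18 for Eng, −0.12 to 0.13 for Ly6c1, −0.036 to 0.10 for Egfl7, −0.020 to 0.069 for Clu, −0.019 to 0.21 for Pdgfrb, −0.0027 to 0.14 for Tjp1, −0.044 to 0.089 for Flt1, −0.0076 to 0.25 for Slc2a1 and −0.046 to 0.38 for Higd1b. Quantile normalization turned Pecam1 to −0.010, Eng to −0.0011 and Ly6a to −0.0026, and Cldn5 was 0.0042 in edgeR and 0.0060 in DESeq2. The cause was not tested. No paired analysis was possible because the genotypes share no replicate numbers. With 3 libraries a group, differences near the spread between libraries were not detectable. Anpep had the fewest reads of the members, 22 to 46 per library, and Acta2 the widest standard error, 0.51.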
